A study of Mus musculus with 14 samples.

Results

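A set of 10 genes of bone and of hypertrophic cartilage was followed in mouse embryonic fibroblasts labelled as Tip60 knockout or control. Tip60 is the lysine acetyltransferase encoded by Kat5. The genes were Runx2, Sp7, Dlx5, Alpl, Phospho1, Ibsp, Spp1, Sparc, Col10a1 and Mmp13. They were taken by name as known osteoblast and hypertrophic chondrocyte genes, and all 10 were found among the 26270 gene identifiers in the count files. The choice was made with earlier results of these data known. Counts of called members therefore describe the set and are no independent test of it. A total of 14 libraries of RNA from E13.5 embryo fibroblasts grown in 3% O2 made up 4 groups. These were Tip60-/- (KO) cells at day 3 (n = 3), Tip60+/+ control cells at day 3 (n = 3), KO cells at day 5 (n = 4) and control cells at day 5 (n = 4). The day counts treatment with 250 nM 4-hydroxytamoxifen (4-OHT), which induced the deletion. The treatment text is the same for every sample, and no label says separately whether control cells received the drug. The sources used here do not give the Cre driver, the deleted exons or any further allele that the controls carry.

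KO and control cultures came from different embryos with no embryo label in common, so embryo origin and genotype cannot be told apart. KO replicate 2 was female and the other KO cultures were male, whereas control replicate 4 at day 5 was male and of another litter, and the other control cultures were female. KO replicates 3 and 4 have the same litter label, and KO replicates 1 and 2 each have another. Each of KO replicates 2, 3 and 4 was sampled at both days from 1 embryo, and day 3 control replicates 1 and 2 have the same embryo label. P-values therefore measure the spread between these cultures. RNA came from whole cultures, in which fewer cells of a type and less RNA per cell cannot be told apart.

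Bone forms either directly from mesenchymal cells that become osteoblasts or by replacement of a cartilage model. In the cartilage model, chondrocytes first lay down a matrix rich in type II collagen, then enlarge (hypertrophy), switch to type X collagen, calcify their surroundings and release enzymes that open the matrix to invading cells. Runx2 is required for both osteoblast formation and full hypertrophy, Sp7 acts after it in osteoblasts, and the mineralizing enzymes and secreted matrix proteins mark later steps. Embryonic fibroblast cultures are mixed mesenchymal populations made from most of the embryo body, and can hold cells of skeletal origin.

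Total counts per library ran between 2187168 (KO day 3 replicate 3) and 39203154 (KO day 3 replicate 2). Kat5 averaged 19.9 ± 1.41 CPM (the count relative to the scaled library total) in KO and 31.9 ± 0.41 CPM in control cells at day 3, and 18.4 ± 1.14 CPM in KO and 30.9 ± 0.92 CPM in control cells at day 5 (SD), with no overlap at either day. Much of the Kat5 signal thus remained in KO cells, and these counts do not show how much Tip60 protein was left. Kat5 shares 426 exon bases with Rnaseh2c on the opposite strand. All 9 fibroblast markers were detected in each group, and their summed level was 9404 to 10881 CPM in KO and 7163 to 8644 CPM in control cells at day 3, and 8136 to 8925 CPM in KO and 8732 to 9379 CPM in control cells at day 5. Control replicate 4 at day 5 stood apart. The chi-square per degree of freedom between its counts and those of the other day 5 controls was 36.4 to 79.3, against 3.29 to 4.56 among these others. It was 6.31 to 15.9 within the day 3 controls and 5.56 to 50.1 within the KO groups. This value grows with library depth, which differed between pairs, and the other day 5 controls have a common litter label. Cartilage markers were high in the same library, as given below beside the results it touches.

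Promoter windows were examined for the members because several of them moved together. They come from RefSeq (GRCm38.p6) and reach 250 bases before and 50 bases after an annotated start. Windows were held for 8 of the 10 members (10 windows), and Sp7 and Dlx5 had none. A total of 3 short motifs were searched on both strands: TGTGGT, the core bound by RUNX factors, TGANTCA, bound by AP-1, and TAATTA, the core bound by many homeodomain proteins such as DLX5. The windows of Mmp13, Col10a1 and Spp1 are shown because Mmp13 and Col10a1 had large rises with counts in every library and Spp1 was the member that fell. Capitals mark the matches, with TGTGGT on the reverse strand appearing as ACCACA, and all 3 windows are on the plus strand, at chr9:7272264-7272563 for Mmp13, chr10:34389731-34390030 for Col10a1 and chr5:104434861-104435160 for Spp1.
Mmp13: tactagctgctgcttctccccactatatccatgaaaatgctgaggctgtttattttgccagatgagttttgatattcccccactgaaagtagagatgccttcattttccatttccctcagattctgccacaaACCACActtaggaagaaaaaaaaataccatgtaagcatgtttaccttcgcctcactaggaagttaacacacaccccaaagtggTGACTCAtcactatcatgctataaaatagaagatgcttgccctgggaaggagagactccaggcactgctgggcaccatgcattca
Col10a1: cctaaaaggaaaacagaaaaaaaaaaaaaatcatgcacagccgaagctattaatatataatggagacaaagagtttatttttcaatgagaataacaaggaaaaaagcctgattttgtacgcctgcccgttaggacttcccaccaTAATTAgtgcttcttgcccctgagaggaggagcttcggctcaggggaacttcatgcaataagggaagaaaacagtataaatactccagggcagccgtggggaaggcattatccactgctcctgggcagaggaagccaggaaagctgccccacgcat
Spp1: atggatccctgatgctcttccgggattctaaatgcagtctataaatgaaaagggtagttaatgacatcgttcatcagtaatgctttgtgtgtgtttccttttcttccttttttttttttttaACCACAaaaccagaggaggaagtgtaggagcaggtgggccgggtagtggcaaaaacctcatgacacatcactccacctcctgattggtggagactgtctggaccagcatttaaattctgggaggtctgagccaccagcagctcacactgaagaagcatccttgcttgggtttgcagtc
With the annotated start counted as 1 and the base before it as -1, the Mmp13 window held TGTGGT at -118 and TGANTCA at -35. The Col10a1 window held TAATTA at -106. The Spp1 window held TGTGGT at -128, and a second Spp1 window held TAATTA at -122. TGTGGT was present in 4 of the members' 10 windows (Runx2, with 3 sites, Spp1, Sparc and Mmp13), against 16.8% of all 32851 promoter windows of the same length. TGANTCA was present in 2 of the 10 windows (Phospho1 and Mmp13), against 7.81% of all windows. TAATTA was present in 2 of the 10 windows (Spp1 and Col10a1), against 5.29% of all windows. None of the 3 motifs was found in the windows of Alpl or Ibsp. These matches describe letters in the windows and were not tested for binding.

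The first question was which of these genes differed between KO and control cells at each day. At day 3, 8 of the 9 members that passed the filter on low counts rose in KO cells and 0 fell. Over all 14327 genes tested, 24.6% were called higher and 26.2% lower, or 50.9% in either direction. At day 5, 7 members rose and 1, Spp1, fell, against 26.3% called higher, 26.2% called lower and 52.5% called in either direction over all genes tested. A call is a Benjamini-Hochberg adjusted p below 0.05 in edgeR's quasi-likelihood test. Ibsp was the member that did not pass the filter. Alpl and Ibsp had 0 counts over the day 3 controls, as Ibsp had at day 5, and so could not come out lower there. Sp7, with 3 counts over the day 3 controls, had little room to be called lower. In 9 of the 10 members, Spp1 excepted, every KO library at day 3 lay above every control library, which was so for 28.2% of all genes tested, and 0 members had every KO library below every control library (29.6% of all genes tested). At day 5, every KO library lay above every control library for 6 members (23.5% of all genes tested), and Spp1 had all KO libraries below all control libraries (23.8% of all genes tested). The exact two-sided permutation test of a single gene cannot go below p = 0.1 at day 3 or p = 0.0286 at day 5.

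**Figure D1:**
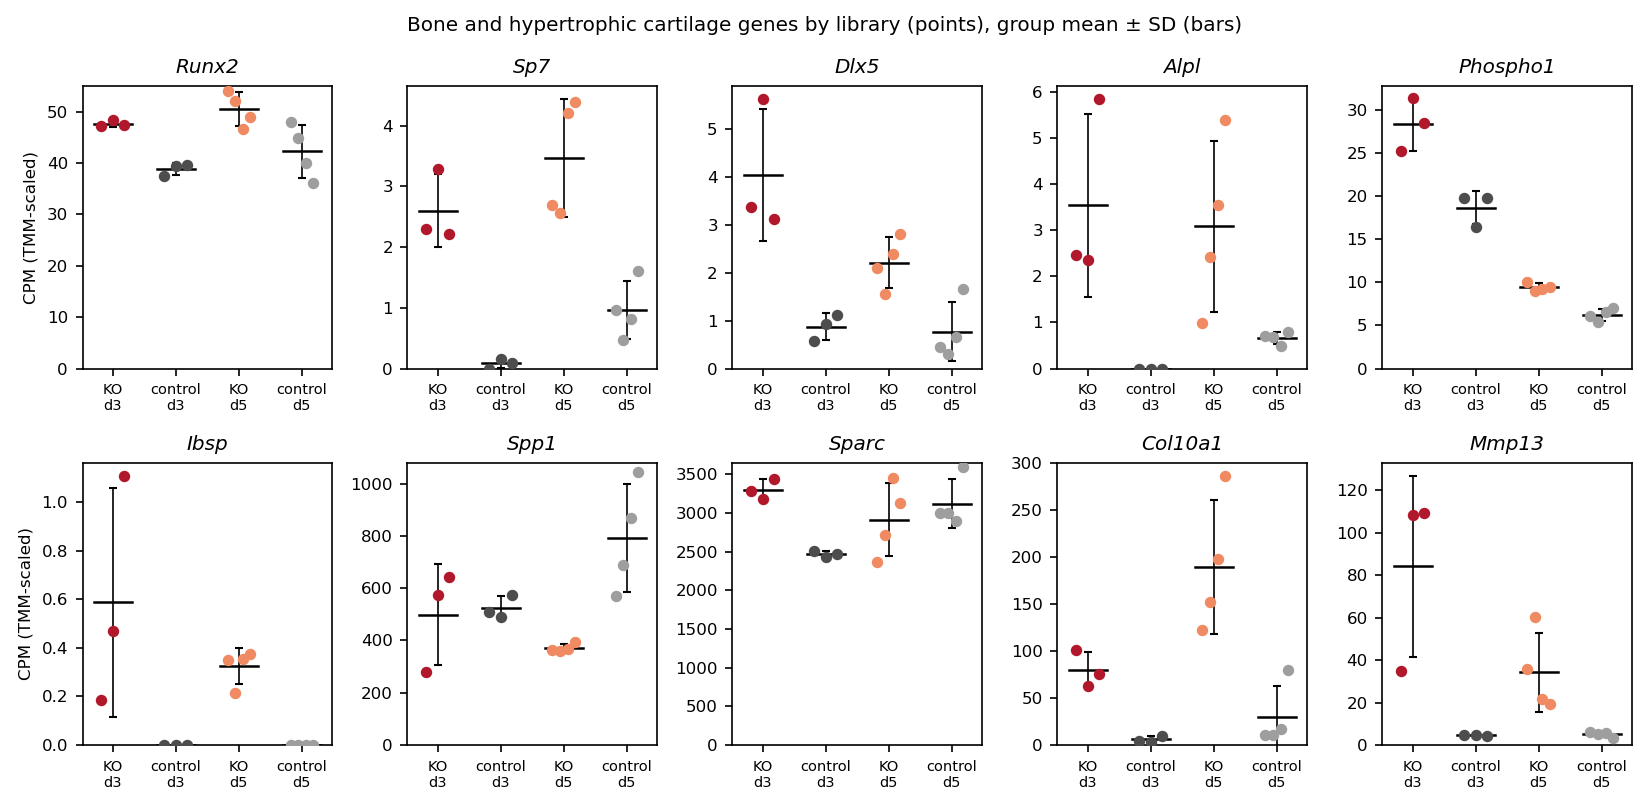
CPM on scaled library totals (y axis, from 0, own scale per gene) of the 10 genes in each library (points), with group mean and SD (bars), for KO and control cells at day 3 (d3) and day 5 (d5). Alpl and Ibsp had 0 counts in all day 3 controls, Spp1 was lower in KO than in control cells at day 5, and Phospho1 was lower at day 5 than at day 3 in both genotypes.

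**Figure D2:**
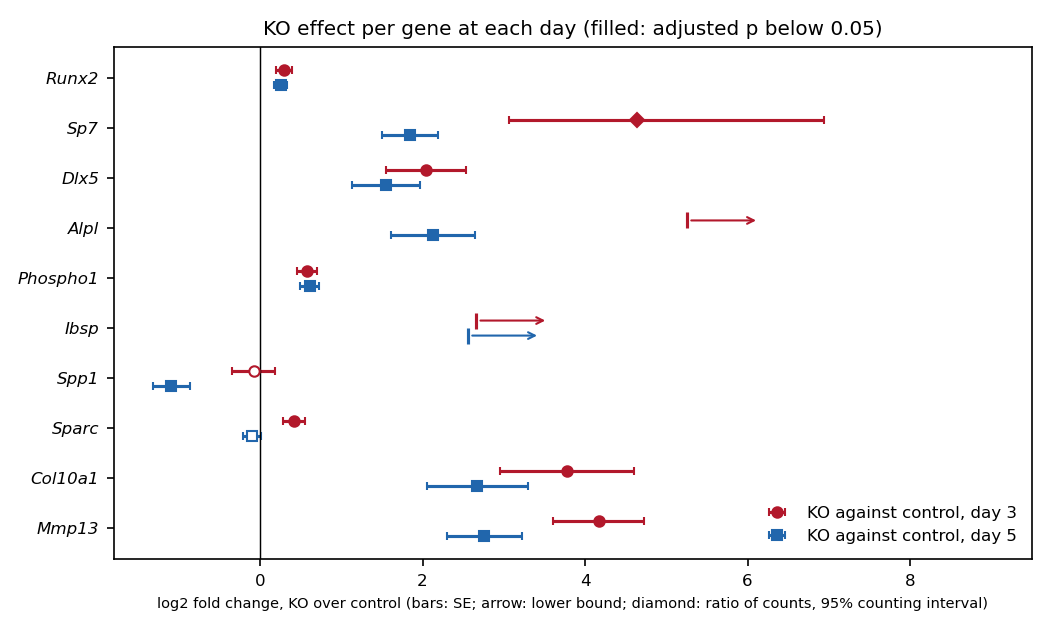
Log2 fold change of KO over control cells (x axis) for each gene (y axis) at day 3 and day 5, with standard errors, filled where the adjusted p was below 0.05. Arrows start at the lower bound for a control group with 0 counts, and the diamond for Sp7 at day 3 is a ratio of counts with its 95% counting interval.

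Runx2 (chr17:44495987-44814797, coordinates in GRCm38.p6 for all genes here), the transcription factor required for osteoblasts, was expressed in all groups and rose slightly in KO cells at both days. Runx2 had 47.2, 48.4 and 47.4 CPM in KO libraries at day 3, against 37.6, 39.5 and 39.6 CPM in control libraries. Runx2 at day 5 had 54.1, 52.1, 46.6 and 49.0 CPM in KO libraries, against 47.9, 44.9, 40.1 and 36.1 CPM in control libraries. The groups did not overlap at day 3 but did at day 5, where the highest control library exceeded the lowest KO library. For Runx2 the log2 fold change was 0.29 ± 0.10 (SE) at day 3 (edgeR adjusted p = 0.0238) and 0.25 ± 0.08 at day 5 (edgeR adjusted p = 0.0181). The day 3 call ended when KO replicate 2 (adjusted p = 0.0513), KO replicate 4 (0.0501) or control replicate 1 (0.069) was left out, and when the day 3 controls with a common embryo label were summed (0.0581). The day 5 call ended when KO replicate 1 (adjusted p = 0.0564) or control replicate 3 (0.0501) was left out. Runx2 exons overlap those of the antisense gene Runx2os1 over 519 bases, and the strand setting of the counting is not given in the sources used here.

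Sp7 (osterix; chr15:102356603-102367035), the zinc finger factor needed after Runx2 for osteoblasts, was near 0 in day 3 controls and present in all KO libraries. Sp7 had 2.29, 3.29 and 2.21 CPM in KO libraries at day 3, against 0, 0.16 and 0.093 CPM in control libraries, with 116 counts over the KO and 3 counts over the control libraries. Day 5 levels of Sp7 were 2.69, 2.56, 4.21 and 4.38 CPM in KO libraries, against 0.97, 0.47, 0.81 and 1.60 CPM in control libraries. KO libraries were above control libraries at both days, and day 5 controls were above day 3 controls. The ratio of scaled counts, KO over control, was 25 at day 3 (95% exact counting interval 8.35 to 123; edgeR adjusted p = 5.03e-05). Without control replicate 2, which held most of the control counts, this ratio was 45.2 (7.95 to 1801). At day 5 the log2 fold change was 1.85 ± 0.35 (edgeR adjusted p = 0.000497).

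Dlx5 (chr6:6877801-6882068), a homeodomain factor that promotes both osteoblast formation and chondrocyte maturation, rose in KO cells at low levels. Dlx5 had 3.38, 5.64 and 3.12 CPM in KO libraries at day 3, against 0.57, 0.93 and 1.12 CPM in control libraries. Its level at day 5 was 2.10, 1.56, 2.39 and 2.82 CPM in KO libraries, against 0.45, 0.31, 0.65 and 1.67 CPM in control libraries. The groups were apart at day 3, and at day 5 only control replicate 4 reached into the KO range. For Dlx5 the log2 fold change was 2.04 ± 0.49 at day 3 (edgeR adjusted p = 0.00336) and 1.55 ± 0.42 at day 5 (edgeR adjusted p = 0.00655). Without control replicate 4 the day 5 value was 2.36 ± 0.36.

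Alpl (chr4:137741731-137796384), tissue-nonspecific alkaline phosphatase, which removes the mineralization inhibitor pyrophosphate, had no count in any day 3 control. Alpl had 2.45, 2.35 and 5.84 CPM in KO libraries at day 3 (156 counts), against 0 CPM in all 3 control libraries. Day 5 levels of Alpl were 0.98, 2.42, 3.55 and 5.39 CPM in KO libraries, against 0.71, 0.67, 0.49 and 0.80 CPM in control libraries. The groups did not overlap at either day, although KO replicate 1 at day 5 was close to the controls. Against a floor of 3 counts over the control group, Alpl was at least 38.2-fold higher in KO cells at day 3 (edgeR adjusted p = 0.000198), or at least 23.0-fold higher without control replicate 2. At day 5 the log2 fold change was 2.13 ± 0.52 (edgeR adjusted p = 0.00476).

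Phospho1 (chr11:95824500-95832140), the phosphatase that releases phosphate inside matrix vesicles, was higher in KO cells by a similar step at both days. Phospho1 had 25.2, 31.5 and 28.5 CPM in KO libraries at day 3, against 19.9, 16.4 and 19.8 CPM in control libraries. Phospho1 at day 5 had 10.0, 8.95, 9.29 and 9.52 CPM in KO libraries, against 6.11, 5.35, 6.52 and 6.98 CPM in control libraries. KO and control libraries were apart at both days, and each day 5 library was below each day 3 library. For Phospho1 the log2 fold change was 0.58 ± 0.12 at day 3 (edgeR adjusted p = 0.00139) and 0.61 ± 0.11 at day 5 (edgeR adjusted p = 0.000484). In the GENCODE M21 annotation its exons overlap those of Zfp652 on the same strand over 1818 bases. They overlap those of Abi3 on the opposite strand over 1708 bases. The deposited gene length of Phospho1 is 1910 bases, so these overlaps may cover most of the gene. Reads there could have been counted for either gene or for none. How far this touched the Phospho1 values at either day was not tested. Zfp652 had 14.7 to 27.5 CPM over all libraries and was not called at either day. Abi3 had 0 to 0.906 CPM, with a log2 fold change of 1.50 at day 5 (edgeR adjusted p = 0.0353).

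Ibsp (chr5:104299287-104311472), bone sialoprotein, a secreted glycoprotein of mineralizing matrix, was detected in KO libraries and in no control library. Its counts at day 3 were 7, 1 and 11 in KO replicates 2, 3 and 4, against 0 in each control library. Its counts at day 5 were 10, 3, 7 and 6 in KO libraries, against 0 in each control library. The level in KO cells was 0.185 to 1.11 CPM at day 3 and 0.213 to 0.376 CPM at day 5. The exact permutation test gave p = 0.1 at day 3 and p = 0.0286 at day 5, the smallest values the designs allow. In an edgeR fit with no filter on low counts the adjusted p was 0.00814 at day 3 and 0.00448 at day 5. A count of 0 in these control libraries allows up to 3 counts over the group and does not show that the gene was silent there.

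Spp1 (osteopontin; chr5:104435111-104441053), a phosphorylated matrix protein and cytokine made by osteoblasts, hypertrophic chondrocytes, macrophages and many other cells, was the member that fell at day 5. Spp1 had 278.9, 575.3 and 641.7 CPM in KO libraries at day 3, against 509.9, 490.8 and 573.9 CPM in control libraries. Day 5 levels of Spp1 were 362.8, 360.1, 368.9 and 395.3 CPM in KO libraries, against 568.1, 689.8, 866.7 and 1042 CPM in control libraries. KO replicate 2 was far below the other KO libraries at day 3, where the groups overlapped, whereas at day 5 all KO libraries were below all control libraries. For Spp1 the log2 fold change was -0.08 ± 0.26 at day 3 (edgeR adjusted p = 0.827), or 0.21 without KO replicate 2. At day 5 it was -1.09 ± 0.23 (edgeR adjusted p = 0.00153). The summed level of 14 osteoclast and macrophage markers was 84.1 to 107 CPM in KO and 134 to 174 CPM in control cells at day 3, and 97.9 to 157 CPM in KO and 109.7 to 149.8 CPM in control cells at day 5. Of these markers Dcstamp, which osteoclast fusion requires, was at 0 in the day 3 groups and in day 5 controls. Their part in the Spp1 result was not tested. Spp1 shares 309 exon bases with Gm42793 on the same strand.

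Ibsp and Spp1 lie on chromosome 5 in a cluster of genes for small secreted phosphoproteins of bone and tooth, together with Dspp, Dmp1 and Mepe, over 270.4 kb (GRCm38.p6). The start of Spp1 is 123.6 kb past the end of Ibsp. Over all 14 libraries Spp1 held 105877 counts, Dmp1 76, Ibsp 45, and Mepe and Dspp 0. Dmp1, a mineralization protein of osteocytes, had 24 counts in KO and 0 in control cells at day 3, and 48 in KO and 4 in control cells at day 5. KO replicate 3 had 0 of these at day 3, and KO replicate 4 held 27 of the 48 at day 5. Dmp1 is given by its counts alone, which are not scaled for depth, and no difference was judged from them.

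Sparc (osteonectin; chr11:55394159-55420080), a collagen-binding matrix protein that fibroblasts make as well as osteoblasts, was the most abundant member per length. Sparc had 3276, 3175 and 3442 CPM in KO libraries at day 3, against 2511, 2434 and 2473 CPM in control libraries. Its level at day 5 was 2364, 2718, 3444 and 3126.5 CPM in KO libraries, against 2994, 2998, 2901 and 3589 CPM in control libraries. The groups were apart at day 3 and overlapped widely at day 5. For Sparc the log2 fold change was 0.42 ± 0.13 at day 3 (edgeR adjusted p = 0.0175) and -0.10 ± 0.11 at day 5 (edgeR adjusted p = 0.485). The day 3 call was lost with sex as a covariate (adjusted p = 0.0746) and without control replicate 2 (adjusted p = 0.0508).

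Col10a1 (chr10:34389981-34397085), the type X collagen chain made by hypertrophic chondrocytes, rose in KO cells at both days. Col10a1 had 101.1, 63.4 and 75.4 CPM in KO libraries at day 3, against 4.68, 3.43 and 9.80 CPM in control libraries. Day 5 levels of Col10a1 were 122.7, 152.1, 198.0 and 286.5 CPM in KO libraries, against 10.3, 10.9, 17.3 and 79.9 CPM in control libraries. No groups overlapped within a day, but control replicate 4 at day 5 was well above the other 3 controls and above 2 of the 3 day 3 KO libraries. For Col10a1 the log2 fold change was 3.78 ± 0.83 at day 3 (edgeR adjusted p = 0.00262) and 2.67 ± 0.62 at day 5 (edgeR adjusted p = 0.00365). Without control replicate 4 the day 5 value was 3.96 ± 0.40 (edgeR adjusted p = 1.06e-05). Col10a1 shares 18 exon bases with Nt5dc1 on the opposite strand.

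Most cartilage markers rose in KO cells at day 3, and at day 5 the summed levels of the groups overlapped. The summed level of 15 cartilage markers was 3443 to 4021 CPM in KO and 255 to 454 CPM in control cells at day 3, and 2338 to 4550.4 CPM in KO and 435 to 3432 CPM in control cells at day 5. Of these markers Snorc was at 0 throughout, and Matn1 and Cnmd were also at 0 in day 3 controls. The highest day 5 control was again replicate 4, in which Col2a1, the type II collagen gene of chondrocytes, reached 2472 CPM, against 127 to 303 CPM in the other day 5 controls. Comp, a cartilage matrix protein, had 57.6 CPM in that library, against 1.66 to 3.26 CPM in the other day 5 controls. At day 3, 11 of the 13 cartilage markers tested rose and 0 fell, against 24.6% called higher and 26.2% called lower over all genes tested, with a median log2 fold change of 3.85 when Cnmd is set at its lower bound (4.08 as fitted), and at day 5, 7 rose and 0 fell, against 26.3% and 26.2% over all genes tested, with a median of 1.74. Over all genes tested the median was -0.0036 at day 3 and 0.02 at day 5. Cnmd, with 0 counts over the day 3 controls, could not be called lower at day 3. Col9a1, with 7 counts over the same controls, had little room to be. Matn3, a cartilage matrix linker, rose by a log2 fold change of 4.40 ± 0.42 at day 3 (edgeR adjusted p = 2.23e-06) and 2.00 ± 0.27 at day 5 (edgeR adjusted p = 3.81e-05). Sox9, the master regulator of chondrocytes, rose by 0.49 ± 0.09 at day 5 (edgeR adjusted p = 0.000402). Some of the tested cartilage markers were not called at day 5. Among them, with overlapping groups, were Col2a1 (1.74 ± 0.82, edgeR adjusted p = 0.0958), Comp (2.17 ± 0.92, edgeR adjusted p = 0.0662) and Col11a1, a fibrillar collagen gene of cartilage (0.57 ± 0.34, edgeR adjusted p = 0.172). Whether the number of cartilage cells had a part in the results for the 10 genes was not tested.

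**Figure D3:**
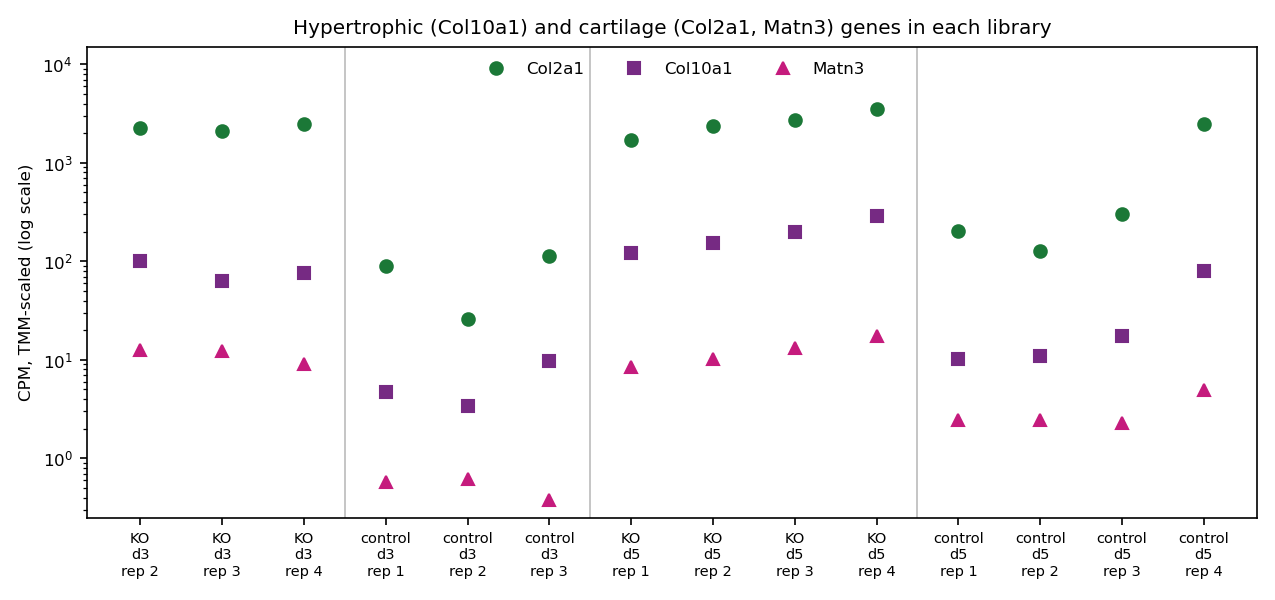
CPM on scaled totals (y axis, log scale) of Col2a1, Col10a1 and Matn3 in each of the 14 libraries (x axis, grouped by genotype and day). Control replicate 4 at day 5 had 79.9 CPM of Col10a1 and 2472 CPM of Col2a1, both within the range of the KO libraries of the 2 days.

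Mmp13 (chr9:7272514-7283333), the collagenase that late hypertrophic chondrocytes and osteoblasts release, had the largest fitted rise among members with counts in every control library at day 3. Mmp13 had 35.1, 108.5 and 109.1 CPM in KO libraries at day 3, against 4.68, 4.83 and 4.11 CPM in control libraries. Mmp13 at day 5 had 35.6, 60.02, 21.7 and 19.4 CPM in KO libraries, against 6.05, 5.24, 5.70 and 3.27 CPM in control libraries. Control libraries were closely grouped, KO libraries were scattered, and there was no overlap at either day. For Mmp13 the log2 fold change was 4.17 ± 0.56 at day 3 (edgeR adjusted p = 9.82e-05) and 2.76 ± 0.46 at day 5 (edgeR adjusted p = 0.000425). Unlike Col10a1, Mmp13 was no higher in control replicate 4 at day 5 than in the other day 5 controls.

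The KO effect was next compared between the days. The difference, day 5 minus day 3, was called for 2 of the 9 tested members, both towards a smaller effect at day 5, against 7.15% of all genes tested called in that direction, 7.16% in the other and 14.3% in either. For Sp7 the edgeR adjusted p was 0.0347 and for Alpl it was 0.0308. These differences rest on day 3 controls with 3 counts of Sp7 and 0 of Alpl, while day 5 controls held 51 counts of Sp7 and 38 of Alpl. Leaving out 1 library ended the Sp7 call in 8 cases, with adjusted p between 0.0505 and 0.0863 (KO day 3 replicates 2 and 3, KO day 5 replicates 1 and 2, each day 3 control, and control day 5 replicate 1). It ended the Alpl call in 6 cases, with adjusted p between 0.0505 and 0.0748 (each day 3 control, and control day 5 replicates 1, 2 and 4). For Spp1 the difference was -1.01 ± 0.35 (edgeR adjusted p = 0.0692), and it was called with DESeq2 (adjusted p = 0.0174), with sex as a covariate (0.044), without KO day 3 replicate 2 (0.00413) and without control day 5 replicate 1 (0.0415). For Sparc it was -0.51 ± 0.18 (edgeR adjusted p = 0.0637), and it was called with DESeq2 (adjusted p = 0.013) and without KO day 5 replicate 3 (0.0373). The differences for Runx2 (-0.04 ± 0.13), Phospho1 (0.03 ± 0.17), Dlx5 (-0.50 ± 0.66), Col10a1 (-1.11 ± 1.00) and Mmp13 (-1.41 ± 0.72) were not called.

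The days were then compared within each genotype, with the same libraries as above. Within KO cells, day 5 differed from day 3 in 1 tested member, Phospho1, and 0 members rose, against 4.98% of all genes tested called higher, 7.06% called lower and 12.0% called in either direction at day 5. Every day 5 library was below every day 3 library for 2 members, Phospho1 and Dlx5 (13.4% of all genes tested). Phospho1 averaged 9.44 ± 0.44 CPM in day 5 KO and 28.4 ± 3.11 CPM in day 3 KO cells (SD), a log2 change of -1.56 ± 0.12 (edgeR adjusted p = 2.17e-06). Col10a1 averaged 189.8 ± 71.5 CPM in day 5 KO and 80.0 ± 19.2 CPM in day 3 KO cells, with no overlap and a log2 change of 1.22 ± 0.65 (edgeR adjusted p = 0.269). With the embryo as a block the Col10a1 value was 1.36 and was called (edgeR adjusted p = 0.0403). Mmp13 went in opposite ways in cultures that differed in embryo, litter and sex, with 1 library per embryo and day. KO replicate 2 had 60.02 CPM at day 5 and 35.1 CPM at day 3, whereas replicate 3 had 21.7 CPM at day 5 and 108.5 CPM at day 3, and replicate 4 had 19.4 CPM at day 5 and 109.1 CPM at day 3. The log2 change was -1.26 ± 0.43 (edgeR adjusted p = 0.0785), and without day 3 replicate 2 it was -1.67 (adjusted p = 0.0148), without day 5 replicate 2 it was -1.68 (adjusted p = 0.021). Spp1 changed by -0.42 ± 0.24 (edgeR adjusted p = 0.31), or by -0.71 (adjusted p = 0.0198) without day 3 replicate 2.

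Within control cells, 4 members rose and 1 fell by day 5, against 18.3% called higher, 19.9% called lower and 38.3% called in either direction over all genes tested. Every day 5 library was above every day 3 library for 4 members, Sp7, Alpl, Col10a1 and Sparc (20.3% of all genes tested), and below for 1, Phospho1 (22.4% of all genes tested). Phospho1 averaged 6.24 ± 0.69 CPM in day 5 control and 18.7 ± 1.96 CPM in day 3 control cells, a log2 change of -1.59 ± 0.12 (edgeR adjusted p = 2.99e-07), close to its change in KO cells. Sp7 was higher at day 5 by a ratio of scaled counts of 10.0 (95% exact counting interval 3.25 to 50.3; edgeR adjusted p = 0.00169), or 18.2 (3.12 to 731) without day 3 replicate 2. Alpl was at least 7.19-fold higher at day 5 (edgeR adjusted p = 0.0107), or at least 4.34-fold without day 3 replicate 2. Col10a1 rose by 2.32 ± 0.79 (edgeR adjusted p = 0.0356), and the call was lost with the embryo as a block (1.12, adjusted p = 0.112). It was also lost without day 5 replicate 4 (1.04, adjusted p = 0.116), without day 3 replicate 1 (adjusted p = 0.0981) or without day 3 replicate 2 (adjusted p = 0.122). Other edgeR settings that lost it were no filter on low counts (adjusted p = 0.0667) and only the control groups in the fit (0.0917). The call also ended with sex as a covariate (0.0925) and with the day 3 controls of a common embryo label summed (0.0922). The Sparc change of 0.34 ± 0.12 (edgeR adjusted p = 0.0459) lost its call when any 1 of the 7 control libraries was left out (adjusted p between 0.0505 and 0.113) and with the embryo as a block (0.26, adjusted p = 0.17). Spp1 changed by 0.59 ± 0.25 (edgeR adjusted p = 0.0752), or by 0.72 (adjusted p = 0.0351) without day 5 replicate 1.

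Levels were compared between the genes as CPM per kilobase of the deposited gene length. Sparc and Spp1 were the most abundant members per length in all 4 groups, with 1434 ± 58.5 and 301 ± 117 CPM per kilobase in day 3 KO cells, and 1076 ± 16.9 and 317 ± 26.3 CPM per kilobase in day 3 control cells. At day 3, Mmp13 and Col10a1 followed in KO cells at 31.5 ± 15.9 and 25.5 ± 6.15 CPM per kilobase, levels whose libraries overlapped, ahead of Phospho1 at 14.9 ± 1.63 and Runx2 at 6.88 ± 0.091. In day 3 control cells Phospho1 (9.79 ± 1.03 CPM per kilobase) and Runx2 (5.61 ± 0.16) stood above Col10a1 (1.91 ± 1.08) and Mmp13 (1.70 ± 0.14), and the last pair overlapped. At day 5, Col10a1 was the third member in KO cells at 60.6 ± 22.9 CPM per kilobase, above Mmp13 at 12.8 ± 6.97. In day 5 control cells it had 9.45 ± 10.8 CPM per kilobase and overlapped Runx2 at 6.10 ± 0.75. Dlx5, Alpl and Sp7 were between 1.14 and 2.88 CPM per kilobase in KO and between 0 and 0.622 CPM per kilobase in control cells on the group means of both days, and Ibsp was the lowest member wherever it was detected.

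**Figure D4:**
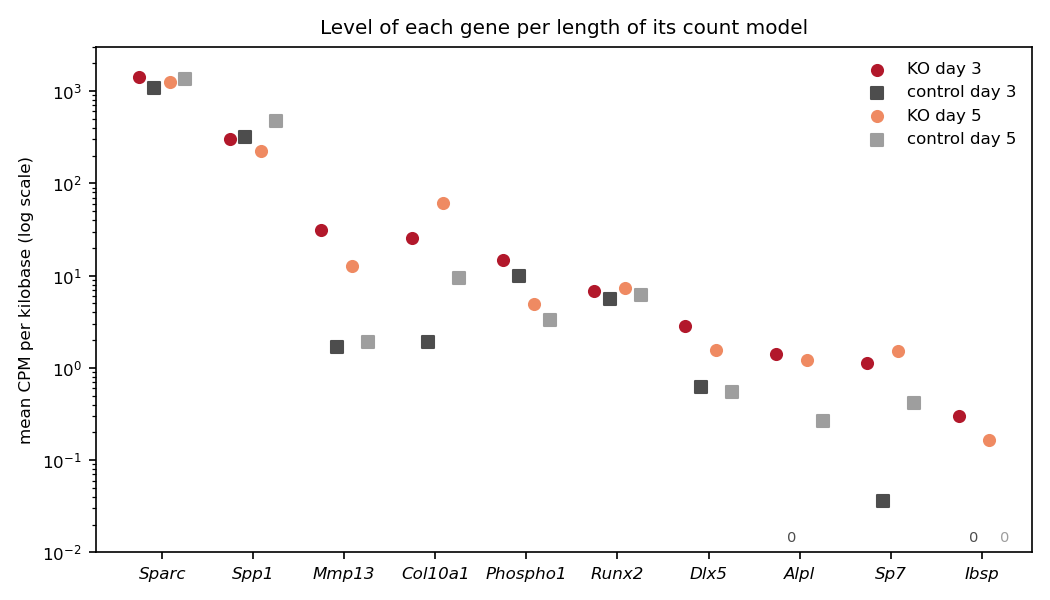
Mean CPM per kilobase of gene length (y axis, log scale) for the 10 genes (x axis, ordered by the day 3 KO level) in the 4 groups, with group means of 0 written as 0. Sparc and Spp1 were high in every group, and Mmp13 at day 3 had 31.5 CPM per kilobase in KO and 1.70 CPM per kilobase in control cells.

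Other genes of bone formation were described from lists of their roles. Of 18 further osteoblast transcription factors, 16 were tested, of which 8 rose and 2 fell at day 3 (median log2 fold change 0.88), and 7 rose and 3 fell at day 5 (median 0.29). Beside these and the list counts that follow stand 24.6% called higher and 26.2% called lower over all genes tested at day 3, and 26.3% higher and 26.2% lower at day 5. Id1 and Id2, inhibitors of helix-loop-helix factors that respond to bone morphogenetic proteins (BMPs), rose by 1.61 ± 0.22 (edgeR adjusted p = 7.56e-05) and 1.55 ± 0.15 (edgeR adjusted p = 2.3e-06) at day 3. Zfp521, a zinc finger protein that restrains Runx2, rose by 1.29 ± 0.15 at day 3 (edgeR adjusted p = 1.22e-05). Hey1, a Notch target, averaged 4.46 ± 2.34 CPM in KO and 0.904 ± 0.475 CPM in control cells at day 5 and rose by 2.30 ± 0.41 (edgeR adjusted p = 0.000335). Msx1, a homeodomain factor of skull and tooth development, rose by 1.32 ± 0.32 at day 5 (edgeR adjusted p = 0.0032). Atf4, a stress-responsive factor that osteoblasts need for collagen synthesis, fell by 0.86 at day 3 (edgeR adjusted p = 4.66e-05) and by 0.56 at day 5 (edgeR adjusted p = 0.000455) on the log2 scale.

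Of 24 genes of bone matrix and mineralization, 18 were tested, of which 10 rose and 4 fell at day 3 (median log2 fold change 0.61), against 24.6% higher and 26.2% lower over all genes tested. At day 5, 5 rose and 6 fell (median 0.07), shares near the 26.3% higher and 26.2% lower over all genes tested. Omd (osteomodulin), a keratan sulfate proteoglycan of bone, averaged 41.1 ± 10.6 CPM in KO and 0.522 ± 0.132 CPM in control cells at day 3, and 47.2 ± 25.7 CPM in KO and 4.72 ± 4.18 CPM in control cells at day 5. Its log2 fold change was 6.26 ± 0.89 at day 3 (edgeR adjusted p = 0.000146). Vdr, the vitamin D receptor, rose by 2.09 ± 0.25 (edgeR adjusted p = 1.76e-05), and Smpd3, a sphingomyelinase needed for skeletal mineralization, rose by 2.44 ± 0.36 (edgeR adjusted p = 0.000131) at day 3. At day 5, Fkbp10, a collagen chaperone, fell by 0.88 (edgeR adjusted p = 2.73e-06), and Serpinh1, the collagen chaperone HSP47, fell by 0.78 (edgeR adjusted p = 6.8e-06) on the log2 scale. P3h1, a collagen prolyl hydroxylase, fell by 0.53 at day 3 (edgeR adjusted p = 0.000169) and by 0.83 at day 5 (edgeR adjusted p = 7.84e-07) on the log2 scale. Crtap, its partner in the same enzyme complex, chosen after its values were seen, rose by 0.53 ± 0.09 at day 3 (edgeR adjusted p = 0.00029) and had a log2 fold change of 0.18 ± 0.08 at day 5 (edgeR adjusted p = 0.0649). The phosphate transporter gene Slc20a2 rose by 0.46 ± 0.06 at day 5 (edgeR adjusted p = 2.24e-05).

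Both type I collagen genes, chosen after their values were seen, changed in opposite ways at the 2 days. Col1a1 averaged 13129 ± 134 CPM in KO and 6770.3 ± 1061 CPM in control cells at day 3, and 7114 ± 933 CPM in KO and 9274 ± 1325 CPM in control cells at day 5. Its log2 fold change was 0.96 ± 0.16 at day 3 (edgeR adjusted p = 0.000212) and -0.38 ± 0.14 at day 5 (edgeR adjusted p = 0.029), and the difference of effects was -1.34 (edgeR adjusted p = 0.00119). Col1a2 had 0.59 ± 0.14 at day 3 (edgeR adjusted p = 0.00306) and -0.48 ± 0.12 at day 5 (edgeR adjusted p = 0.00491), with a difference of -1.07 (edgeR adjusted p = 0.0023). The day 5 call of Col1a1 was lost without KO replicate 1, 3 or 4 or without control replicate 3 or 4 (adjusted p between 0.0534 and 0.0846), while the difference of effects was called for both genes whichever library was left out.

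Counts of Bglap, Ihh and Sost, chosen after their values were seen, were low. Bglap, an osteocalcin gene of mature osteoblasts with near-identical copies that make its counts uncertain, had 5 counts in KO and 2 in control cells at day 3, and 11 in KO and 5 in control cells at day 5. Ihh, the hedgehog ligand of prehypertrophic chondrocytes, had 7 counts in KO and 2 in control cells at day 3, and 12 in KO and 2 in control cells at day 5. Sost, the osteocyte inhibitor of Wnt signalling, had 1 count in all, in a day 5 KO library. The 3 genes are given by their counts alone, and no difference was judged from them.

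Of 16 genes of growth plate signalling and hypertrophy, 14 were tested, of which 7 rose and 2 fell at day 3 (median log2 fold change 1.10), against 24.6% higher and 26.2% lower over all genes tested. At day 5, 4 rose and 3 fell (median 0.54), shares near the 26.3% higher and 26.2% lower over all genes tested. Pthlh and Panx3, with 1 count each over the day 3 controls, had almost no room to be called lower at day 3. The same holds for Panx3 at day 5, with 2 counts over the controls. Foxc1, a forkhead factor of skeletal development, rose by 2.41 ± 0.56 at day 3 (edgeR adjusted p = 0.00362). Fgfr3, the receptor that restrains chondrocyte growth, rose by 2.48 ± 0.54 at day 5 (edgeR adjusted p = 0.00224), or by 3.60 ± 0.38 without control replicate 4. Panx3, a channel of hypertrophic chondrocytes and osteoblasts, had 65 counts in KO and 2 in control cells at day 5, with both control counts in replicate 2, a ratio of scaled counts of 22.7 (95% exact counting interval 6.03 to 191; edgeR adjusted p = 0.00109, or 0.00333 without that replicate). Pthlh, the peptide that holds back hypertrophy, had 21 counts in KO and 1 in control cells at day 3 (ratio 13.6, interval 2.18 to 562; edgeR adjusted p = 0.00516), a call that ended when KO replicate 2 was left out (adjusted p = 0.0885). Vegfa, which draws vessels into cartilage, fell by 1.06 at day 3 (edgeR adjusted p = 5.93e-05) and by 0.81 at day 5 (edgeR adjusted p = 0.000151) on the log2 scale. Ctsk, the cathepsin of osteoclasts that fibroblasts also make, fell by 1.40 at day 3 (edgeR adjusted p = 0.000963) and by 1.26 at day 5 (edgeR adjusted p = 0.000513) on the log2 scale.

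Of 22 genes of osteoblast-inducing signals and their inhibitors, 20 were tested, and at each day 11 rose and 4 fell (median log2 fold change 0.48 at day 3 and 0.58 at day 5). Over all genes tested, 24.6% were higher and 26.2% lower at day 3, and 26.3% higher and 26.2% lower at day 5. Sfrp1, a secreted Wnt antagonist, averaged 280.3 ± 57.7 CPM in KO and 18.2 ± 1.09 CPM in control cells at day 3, and 353 ± 58.1 CPM in KO and 88.9 ± 10.2 CPM in control cells at day 5. Its log2 fold change was 3.94 ± 0.18 at day 3 (edgeR adjusted p = 6.55e-09) and 1.99 ± 0.14 at day 5 (edgeR adjusted p = 1.62e-07). Ctnnb1, which encodes beta-catenin, rose by 0.77 ± 0.08 at day 3 (edgeR adjusted p = 3.14e-06) and by 0.48 ± 0.07 at day 5 (edgeR adjusted p = 4.52e-05). Wnt10b, a Wnt ligand that promotes bone formation, rose by 2.45 ± 0.26 (edgeR adjusted p = 5.23e-06), and Bmp7, a BMP ligand, rose by 3.15 ± 0.45 (edgeR adjusted p = 5.37e-05) at day 5. Bmp7 had 9 counts over the day 3 controls and 10 over the day 5 controls, and so little room to be called lower. Tgfb1, a ligand of the TGF-beta family, fell by 1.29 (edgeR adjusted p = 2.06e-05), and Bmpr1b, a type I BMP receptor, fell by 1.75 (edgeR adjusted p = 4.43e-05) at day 3 on the log2 scale.

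All 7 genes by which osteoblasts act on osteoclasts were tested, of which 6 rose and 1 fell at day 3 (median log2 fold change 1.32; 24.6% higher and 26.2% lower over all genes tested), and 4 rose and 1 fell at day 5 (median 0.62; 26.3% higher and 26.2% lower over all genes tested). Tnfsf11 (RANKL), the ligand that osteoclasts need, averaged 15.8 ± 7.76 CPM in KO and 1.17 ± 0.74 CPM in control cells at day 3, with a log2 fold change of 3.68 ± 0.48 (edgeR adjusted p = 4.68e-05). Tnfrsf11b (osteoprotegerin), its decoy receptor, averaged 189 ± 44.5 CPM in KO and 18.02 ± 2.38 CPM in control cells at day 3, with a log2 fold change of 3.40 ± 0.58 (edgeR adjusted p = 0.0005). Il34 and Csf1 encode the ligands of the macrophage receptor CSF1R. Il34 rose by 2.13 ± 0.25 at day 3 (edgeR adjusted p = 1.13e-05) and by 1.52 ± 0.20 at day 5 (edgeR adjusted p = 2.37e-05), and Csf1 rose by 0.42 ± 0.10 at day 5 (edgeR adjusted p = 0.00224). Efnb2, a membrane ligand on both cell types, rose by 1.03 ± 0.11 at day 3 (edgeR adjusted p = 3.59e-06) and by 1.01 ± 0.09 at day 5 (edgeR adjusted p = 1.02e-06), and its receptor gene Ephb4 fell by 0.46 at day 5 on the log2 scale (edgeR adjusted p = 0.000161).

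Of the 12 tested osteoclast and macrophage markers, 1 rose and 7 fell at day 3, against 24.6% higher and 26.2% lower over all genes tested. At day 5, 3 rose and 2 fell, against 26.3% higher and 26.2% lower over all genes tested. Acp5, the tartrate-resistant phosphatase of osteoclasts, rose by 0.97 ± 0.26 at day 3 (edgeR adjusted p = 0.00683), a call lost without KO replicate 2 (adjusted p = 0.0752), and by 0.74 ± 0.23 at day 5 (edgeR adjusted p = 0.0137). Mpeg1, a macrophage perforin, fell by 1.14 at day 3 on the log2 scale (edgeR adjusted p = 0.000152). The same shares over all genes apply to the markers of other cell types, whose lists are short. Of these, 4 of 9 tested fibroblast markers rose and 0 fell at day 3, and 4 rose and 2 fell at day 5. Of 6 tendon markers, 3 rose at day 3 and 4 at day 5, with 0 lower at either day. Of 4 tested skeletal muscle markers, 2 rose at day 3 and 1 fell at day 5. Of 4 tested endothelial markers, 1 rose at day 3 and 2 at day 5, and of 4 tested adipocyte markers, 1 rose and 1 fell at day 3 and 1 rose at day 5.

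**Figure D5:**
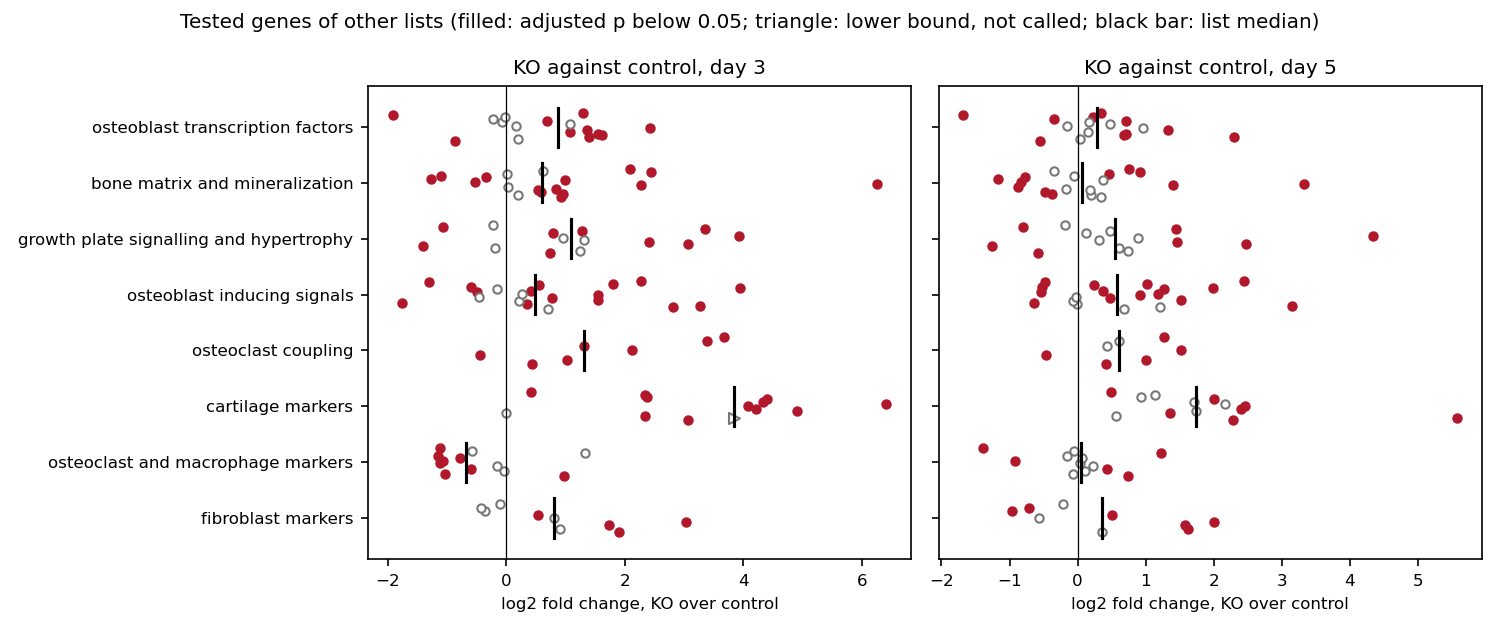
Log2 fold change of KO over control cells (x axis) of the tested genes of 8 lists (y axis) at day 3 and day 5, filled where the adjusted p was below 0.05, with the list median as a black bar. Genes of every bone list lay on both sides of 0, 11 of 13 cartilage markers rose at day 3, and the triangle is the lower bound of Cnmd, which had 0 counts in day 3 controls.

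The tested genes whose level followed Runx2 and Sp7 most closely over the 14 libraries were listed by Pearson's r of log2 CPM. Genes without a symbol, or with a clone or predicted-gene name, were left out of this listing. For Runx2 they were Clca3b (r = 0.92), Nnat (0.913), Agtr2 (0.91), Adamts16 (0.905) and Gtf3c5 (0.903). For Sp7 they were Zmpste24 and Rpgrip1l (0.976 each), Ano5 (0.975), and Optc and Nqo1 (0.974 each). No other member of the 10 was among these. The libraries share 4 groups, whose means set much of each value.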

How the data were processed

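Each file the authors deposited holds a gene identifier, a gene length and an integer count of 1 library, per the file headers. Reads were assigned to mm10 genes with featureCounts, per the submitters' processing notes, from stranded mRNA libraries read as 80 bp pairs, per the labels' protocols. The sources used here name no aligner, annotation release, strand setting or tool version. Lines without an identifier (909 of 27179) held 0.194% to 0.315% of a library's counts and were left out, as were Xist, Tsix and Y-linked genes (112).

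Of 26270 identifiers, 25275 had a symbol, and all 162 gene list entries matched. The 10 genes and the lists were chosen with earlier results of these data known. A total of 14327 genes passed filterByExpr (minimum count 10). A robust quasi-likelihood fit of all 14 libraries (edgeR 4.0.16, limma 3.58.1, R 4.3.3; TMM scaling, 1 mean per group) gave 5 contrasts, each with its own Benjamini-Hochberg adjustment; DESeq2 1.42.0 was an alternative. The standard error (SE) is the log2 fold change divided by the square root of F. CPM uses TMM-scaled totals, and log2 CPM a prior count of 2. Bounds use a floor of 3 counts over the group. Intervals (Clopper-Pearson, 95%) and floors cover counting error only, as there were no molecular identifiers. Of each list, genes named with a fold change were among the 4 called genes with the smallest adjusted p of that comparison. Col1a1, Col1a2, Crtap, the cartilage markers named as not called at day 5, and the list genes given by level or count alone, were named after their values were seen.

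Replicates differed beyond sampling noise: chi-square per degree of freedom was 3.29 to 79.3, and 15.9 between the day 3 controls that have 1 embryo label. The embryo label pairs both days of a genotype. Deviations from the group mean in libraries of the same embryo had correlations of -0.0166, -0.0229 and 0.204 (KO) and of 0.02, 0.0767 and -0.0228 (control).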

Additional observations from a re-analysis of the deposited data

Results flagged for a closer look

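The KO effect on Sp7 differed between the days (edgeR interaction test, adjusted p = 0.0347), with 116 counts in KO and 3 in control cells at day 3, and 266 counts in KO and 51 in control cells at day 5. The KO effect on Alpl also differed between the days (edgeR interaction test, adjusted p = 0.0308), with 156 counts in KO and 0 in control cells at day 3, and 218 in KO and 38 in control cells at day 5. KO libraries were above control libraries for both genes at both days. Neither difference held whichever library was left out: the Sp7 call ended in 8 of 14 such fits (adjusted p up to 0.0863) and the Alpl call in 6 of 14 (adjusted p up to 0.0748).

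In groups of 4 libraries, 3 values stood apart from the rest of their group. Chance alone gives this in about 1 in 20 groups, and whether 3 is more than chance gives was not tested. Col10a1 in control replicate 4 at day 5 had 79.9 CPM, and its gap to the next library was 0.9 of the group's range. Sparc in the same library had 3589 CPM, with a gap of 0.859 of the range. Ibsp in KO replicate 2 at day 5 had 0.213 CPM (3 counts), below the other KO libraries by 0.84 of the range, a difference of a few counts.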

How the results depend on the processing

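Between 7 and 9 of the 10 genes were called for KO against control at each day under every alternative run. The difference of the effects was called for 4 genes with DESeq2 in place of 2, and for 0 to 3 when 1 library was left out. Day 5 against day 3 in KO cells was called for 2 genes with DESeq2, with only the KO groups in the fit and with the replicate block by embryo in place of 1, and for 1 to 3 when 1 library was left out. In control cells it was called for 3 genes with sex as a covariate, with the day 3 controls of a common embryo label summed and with the replicate block by embryo in place of 5, and for 3 to 5 when 1 library was left out. The block by embryo changed no other call among the 10 genes beyond those of Col10a1 in both genotypes and Sparc in control cells. Between genotypes the replicate number marks no common embryo; with it as a replicate block, 7 genes were called at day 3 (Sparc 0.33, adjusted p = 0.0573) and 8 at day 5, and 4 of 8 day 5 libraries correlated best with their own number.

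Signs reversed for 7 values, none of them called. The difference of effects became 0.24 for Col10a1 and -0.024 for Phospho1 with the block by embryo, and -0.00036 for Phospho1 with no filter. With 1 library left out it ran between -0.11 and 0.030 for Runx2, -1.68 and 0.16 for Col10a1, -0.063 and 0.11 for Phospho1, and -0.83 and 0.34 for Dlx5. The day 3 value of Spp1 ran between -0.31 and 0.21, Alpl by day in KO cells between -0.68 and 0.32 (0.054 with the block by embryo), and Dlx5 by day in control cells between -1.05 and 0.10. The causes were not tested. Over all genes, 2051 differences of effects were called, and 1275 (without control day 3 replicate 3) to 2750.0 (without control day 5 replicate 4) when 1 was left out. Of all genes called, day 5 against day 3 in KO cells gave 1725, with 1024 to 1605 when 1 library was left out, and 1024, 1104 and 1107 without KO day 3 replicate 4, KO day 5 replicate 3 and KO day 5 replicate 4. Unscaled totals moved 4 of 44 group means by more than 1 SD. The shallowest library, KO day 3 replicate 3, limits Ibsp, Sp7, Alpl and Dlx5.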
